A study of Mus musculus with 6 samples.

Results

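A group of genes of cellular energy buffering was followed here, namely the creatine kinases *Ckm*, *Ckb*, *Ckmt1* and *Ckmt2*, the myoglobin gene *Mb*, the glycogen phosphorylases *Pygm* and *Pygb*, the adenylate kinase *Ak1* and the AMP deaminase *Ampd1*. They were chosen by name as muscle and non-muscle forms of such genes, which gives 9 genes of the 55416 in the deposited table, each with 1 row. RNA was sequenced from satellite cells (SCs), the stem cells of skeletal muscle, in 3 WT libraries and 3 *Ltf*-KO libraries. SCs were sorted from digested hind leg muscle of mice as Sca1-, CD11b-, CD34+ and α7-integrin+ cells and grown for 4 days on Matrigel, an extracellular matrix coating, in medium with 20% serum, chick embryo extract and 10 ng/ml basic fibroblast growth factor, with no further treatment in either genotype. The *Ltf*-KO mice carry a systemic deletion in the lactoferrin gene, made by CRISPR-Cas9 removal of several exons in C57/BL6N zygotes with guides in 2 introns. Mice of the study were adult, while the sex of the mice, the number of animals behind each library and the number of founders of the line are not given in the sources used here, so p-values measure only the spread between these libraries.

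A contracting muscle can use ATP faster than mitochondria alone supply it, and these enzymes buffer the difference. Creatine kinases move phosphate between ATP and creatine, with *Ckm* as the cytosolic form of muscle, *Ckb* as the cytosolic form of brain and many other tissues, *Ckmt2* as the mitochondrial form of striated muscle and *Ckmt1* as the ubiquitous mitochondrial form. Glycogen phosphorylase releases glucose units from glycogen (*Pygm* in muscle, *Pygb* in brain), adenylate kinase (*Ak1*) converts a pair of ADP molecules into ATP and AMP, and AMP deaminase removes the AMP (*Ampd1* in skeletal muscle). Myoglobin (*Mb*) stores oxygen in muscle fibres, and *Ckm* in particular is a classic gene of muscle differentiation.

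The values were read as TPM, a measure of transcript abundance that takes transcript length and library size into account. This unit was inferred from the values themselves. On this reading levels of different genes can be compared, but read depth cannot be recovered from TPM. The libraries summed to between 993650 and 994356 TPM. The satellite cell label was checked against its markers, and *Myod1*, a transcription factor of activated SCs, had the highest mean of 10 such genes with 778.0 ± 34.6 TPM in WT and 779.9 ± 30.1 TPM in *Ltf*-KO (SD, n = 3 each), while *Pax7*, the defining factor of SCs, lay between 36.6 and 43.3 TPM in the 6 libraries. Of the 10 genes, 9 had a mean of at least 1 TPM. *Cd34*, used in the sort, lay between 4.41 and 6.2 TPM, and *Chrdl2* only between 0.04 and 0.24 TPM. Genes of muscle differentiation were expressed as well, led by *Mylpf*, a fast myosin light chain, at 822.4 to 1396.4 TPM. *Ltf* itself was listed at 0.12, 0.02 and 0.02 TPM in WT and 0.02, 0.03 and 0 TPM in *Ltf*-KO libraries, so its level gives no check of the labels here. In bulk RNA, fewer cells of a type and less RNA per cell cannot be told apart.

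Sequence upstream of the start sites is shown for the cytosolic creatine kinases and the phosphorylases, because their muscle and non-muscle forms lay at different levels in every library and each has a single start in the table used. The 250 bases before each start are from the RefSeq promoter table (GRCm38.p6), written 5′ to 3′ on the strand of the gene, with each E-box (CANNTG, the core motif bound by *Myod1* and related factors) in capitals.
Ckm, chr7:19410844-19411093, plus strand: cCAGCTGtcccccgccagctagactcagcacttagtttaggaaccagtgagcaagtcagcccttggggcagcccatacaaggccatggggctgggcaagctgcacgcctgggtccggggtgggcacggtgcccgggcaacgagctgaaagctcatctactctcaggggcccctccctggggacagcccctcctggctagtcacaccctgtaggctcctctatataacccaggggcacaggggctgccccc
Ckb, chr12:111672339-111672588, minus strand: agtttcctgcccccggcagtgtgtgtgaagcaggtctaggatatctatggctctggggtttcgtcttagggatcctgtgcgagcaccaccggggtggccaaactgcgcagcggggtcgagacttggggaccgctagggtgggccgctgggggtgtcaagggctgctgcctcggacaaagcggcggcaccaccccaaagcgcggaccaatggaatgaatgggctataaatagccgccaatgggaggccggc
Pygm, chr19:6384158-6384407, plus strand: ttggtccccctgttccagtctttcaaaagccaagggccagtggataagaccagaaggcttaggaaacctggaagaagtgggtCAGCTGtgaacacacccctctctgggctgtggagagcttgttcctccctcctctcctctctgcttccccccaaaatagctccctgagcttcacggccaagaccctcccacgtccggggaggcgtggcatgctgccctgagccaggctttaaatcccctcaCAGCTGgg
Pygb, chr2:150786546-150786795, plus strand: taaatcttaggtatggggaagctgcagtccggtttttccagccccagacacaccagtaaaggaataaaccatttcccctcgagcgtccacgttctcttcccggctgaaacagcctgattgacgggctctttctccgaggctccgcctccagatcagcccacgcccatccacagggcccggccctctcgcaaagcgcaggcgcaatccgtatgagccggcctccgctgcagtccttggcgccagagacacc
The pattern CAGCTG, an E-box form that is part of CANNTG, was found before the start of *Ckm* (249 bases before it) and in *Pygm* (168 and 8 bases before it), and neither *Ckb* nor *Pygb* held CANNTG or CAGCTG in this window. RefSeq windows were matched for 8 of the 9 genes, and 5 of these held CAGCTG before at least 1 start (*Ckm*, *Pygm*, *Ckmt2*, *Mb* and *Ak1*), against 13% of 32851 windows in the whole table. The same 5 genes held CANNTG, which was in 66.2% of all windows. *Mb* and *Ak1* are listed with 3 and 4 starts and thus had more windows in which to match. A MEF2 motif (searched on both strands like the others, and present in 2.92% of windows) was found in *Ckb* alone among the 8 genes, 29 bases before the start, where it overlapped a TATAAA match that began 28 bases before the start. TATAAA was in 12.4% of windows and was also found in *Ckmt1*, 31 bases before 1 of its starts. The CArG box was in 1.47% of windows and in 0 of the 8 genes, and GGGCGG was in 32.7% of windows and only in *Ckmt2* among them. These matches describe the letters of the windows and do not show binding.

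Among the creatine kinases, the brain form was the abundant one in cultured SCs. *Ckb* was at 74.76, 71.06 and 70.49 TPM in WT and at 70.34, 76.53 and 79.47 TPM in *Ltf*-KO libraries. The genotypes overlapped, with the lowest and the highest value both in *Ltf*-KO. *Ckm* was at 4.23, 5.05 and 5.53 TPM in WT and at 5.53, 3.85 and 6.28 TPM in *Ltf*-KO libraries. Here too the *Ltf*-KO libraries held both ends of the range, and the WT values lay between them. The log2 fold change of *Ltf*-KO over WT was 0.06 for *Ckb* (95% confidence interval -0.07 to 0.20, limma adjusted p = 0.999) and 0.05 for *Ckm* (-0.36 to 0.46, limma adjusted p = 0.999). The mitochondrial forms were near the floor. *Ckmt1* was listed at 0.27, 0 and 0.15 TPM in WT and at 0.19, 0.19 and 0.09 TPM in *Ltf*-KO libraries. *Ckmt2* was listed at 0, 0.05 and 0 TPM in WT and at 0.36, 0.05 and 0.14 TPM in *Ltf*-KO libraries. No library held more than 0.36 TPM of either gene, and no fold change is given for them. In GENCODE M21 (GRCm38), exons of *Ckm*, *Ckmt1* and *Ckmt2* each overlap 1 gene on the opposite strand, and whether reads were counted by strand is not given in the sources used here. Those neighbours were listed at 0.16 TPM or less.

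*Mb* was the member with the largest difference between genotypes among the 6 tested. It was at 54.93, 68.67 and 55.94 TPM in WT and at 66.95, 73.21 and 80.71 TPM in *Ltf*-KO libraries. WT replicate 2 lay above *Ltf*-KO replicate 1, so the genotypes overlapped, while the other WT libraries lay below every *Ltf*-KO library. The means were 59.8 ± 7.66 TPM in WT and 73.6 ± 6.89 TPM in *Ltf*-KO (SD, n = 3 each), a log2 fold change of 0.30 (standard error 0.105, 95% confidence interval 0.05 to 0.55). Its unadjusted limma p was 0.0274 and its limma adjusted p over 12956 genes was 0.999, so it did not pass the test. Without WT replicate 1, WT replicate 3, *Ltf*-KO replicate 2 or *Ltf*-KO replicate 3 its unadjusted limma p was 0.0939, 0.0913, 0.0671 or 0.0918. Without WT replicate 2 or *Ltf*-KO replicate 1 its unadjusted limma p was 0.0045 or 0.0239. *Mb* exons overlap *Apol6* and *Gm49540* on the opposite strand, which reached 0.34 and 1.34 TPM.

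Glycogen phosphorylase was present in both its muscle and its brain form. *Pygm* was at 24.69, 24.42 and 21.04 TPM in WT and at 27.21, 21.29 and 27.49 TPM in *Ltf*-KO libraries. *Ltf*-KO replicates 1 and 3 were the highest, and *Ltf*-KO replicate 2 was next to the lowest, which was WT replicate 3. *Pygb* was at 17.47, 17.32 and 17.92 TPM in WT and at 17.75, 18.56 and 16.58 TPM in *Ltf*-KO libraries. These values lay within 2 TPM of each other, and WT lay inside the *Ltf*-KO range. The log2 fold change was 0.11 for *Pygm* (95% confidence interval -0.17 to 0.38, limma adjusted p = 0.999) and 0.0034 for *Pygb* (-0.14 to 0.14, limma adjusted p = 0.999). The liver form *Pygl* lay between 0.23 and 0.34 TPM.

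*Ak1*, the cytosolic adenylate kinase of muscle, was the most abundant of the 9 genes. It was at 126.92, 118.07 and 118.96 TPM in WT and at 128, 127.58 and 133.4 TPM in *Ltf*-KO libraries. Every *Ltf*-KO library lay above every WT library, the nearest pair being 126.92 and 127.58 TPM. The means were 121.3 ± 4.87 and 129.7 ± 3.25 TPM (SD, n = 3 each), a log2 fold change of 0.10 (standard error 0.0423, 95% confidence interval -0.0060 to 0.20). *Ak1* had an unadjusted limma p of 0.0612 and a limma adjusted p of 0.999, so it did not pass the test. Of the 6 members tested, 1 had groups that did not overlap, while 8.46% of all tested genes had such groups, 4.73% with *Ltf*-KO higher and 3.73% with *Ltf*-KO lower. *Ampd1* was at 0.81, 0.35 and 0.22 TPM in WT and at 0.48, 1.11 and 0.57 TPM in *Ltf*-KO libraries. Only *Ltf*-KO replicate 2 exceeded 1 TPM, and the genotypes overlapped.

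Ordered by mean over the 6 libraries, the levels were *Ak1* (125.5 ± 5.88 TPM), *Ckb* (73.8 ± 3.77), *Mb* (66.7 ± 9.97), *Pygm* (24.4 ± 2.77), *Pygb* (17.6 ± 0.661), *Ckm* (5.08 ± 0.903), *Ampd1* (0.590 ± 0.324), *Ckmt1* (0.148 ± 0.0935) and *Ckmt2* (0.1 ± 0.137), all as mean TPM ± SD over 6 libraries. Neighbours in this order were compared within libraries by a two-sided exact sign-flip permutation test on log2(TPM + 1), whose smallest p with 6 libraries is 0.03125. *Ckb* exceeded *Mb* in 5 of 6 libraries and did not pass the test (p = 0.0625, adjusted p = 0.0714 over 8 neighbour pairs, exact sign-flip). *Ckmt1* exceeded *Ckmt2* in 3 of 6 libraries (p = 0.469, exact sign-flip). In each of the other 6 neighbour pairs the upper gene was higher in 6 of 6 libraries (p = 0.0312, adjusted p = 0.0417, exact sign-flip). The order came from these same 6 libraries, both genotypes together, so the p-values describe it and give it no independent support. For *Ampd1* over *Ckmt1* the ranges overlapped near the floor, with *Ampd1* down to 0.22 TPM and *Ckmt1* up to 0.27 TPM.

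**Figure D1:**
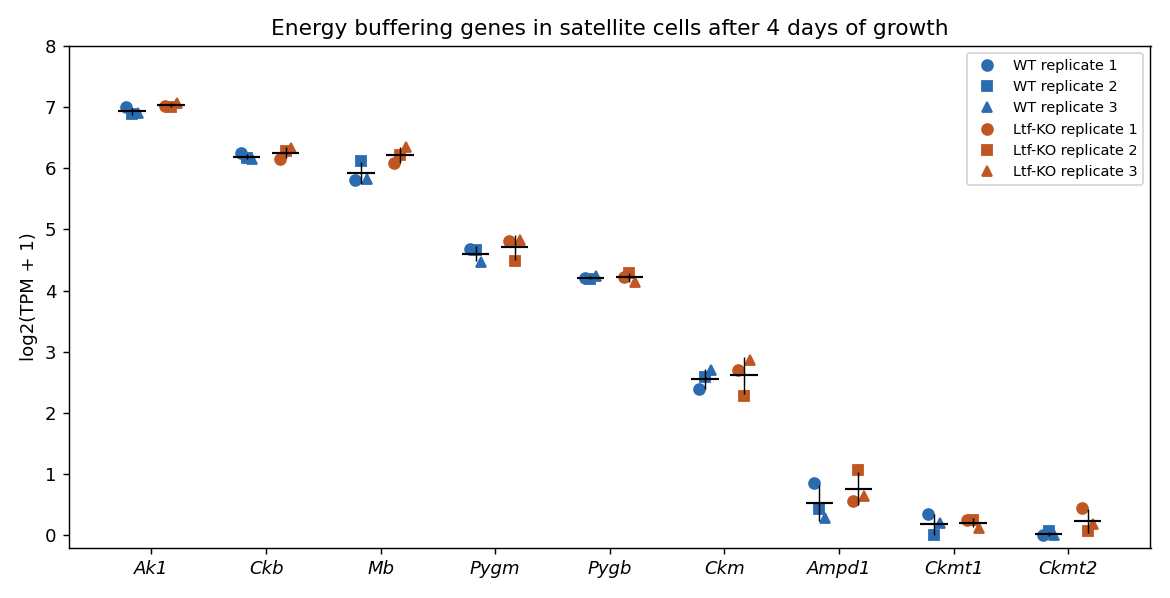
The plot of member levels gives log2(TPM + 1) of the 9 genes in each library, WT in blue and *Ltf*-KO in orange, with a horizontal line for the mean and a vertical line for 1 SD of 3 libraries. *Ak1*, *Ckb* and *Mb* lie at the top, *Ckm* lies far below *Ckb*, and *Ampd1*, *Ckmt1* and *Ckmt2* lie near 0.

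The coefficient of variation among WT and *Ltf*-KO libraries was 1.78% and 5.65% for *Pygb*, 3.22% and 6.18% for *Ckb*, and 4.02% and 2.50% for *Ak1*. It was 13.3% and 23.8% for *Ckm*, 12.8% and 9.36% for *Mb* and 8.70% and 13.8% for *Pygm*. The members below the filter varied most in relation to their means, with 96.6% and 36.9% for *Ckmt1*, for example. The spreads were not compared by a test.

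The balance of muscle and non-muscle forms was then taken within each library as the log2 ratio of TPM + 1. *Ckm* lay below *Ckb* in 6 of 6 libraries, with a mean log2 ratio of -3.63 ± 0.237 (SD, n = 6), that is *Ckb* 12.4-fold above *Ckm* on this scale (p = 0.0312, adjusted p = 0.0417 over 4 pairs, exact sign-flip permutation test). *Ckm* made up 6.42% ± 0.977 of the cytosolic creatine kinase TPM in WT and 6.47% ± 1.45 in *Ltf*-KO (SD, n = 3 each). *Pygm* lay above *Pygb* in 6 of 6 libraries, with a mean log2 ratio of 0.44 ± 0.201 (SD, n = 6), a 1.36-fold excess (p = 0.0312, adjusted p = 0.0417, exact sign-flip), and made up 57.02% ± 2.62 of their sum in WT and 58.8% ± 4.72 in *Ltf*-KO (SD, n = 3 each). *Ampd1* lay below *Ampd2*, an AMP deaminase of non-muscle tissues, in 6 of 6 libraries. Their mean log2 ratio was -4.93 ± 0.217 (SD, n = 6; p = 0.0312, adjusted p = 0.0417, exact sign-flip), or -6.22 with 0.1 TPM added. *Ampd3*, a further AMP deaminase gene outside this pair, lay between 10.73 and 18.45 TPM. *Ckmt2* and *Ckmt1* were both near 0, with 3 libraries on each side (p = 0.469, exact sign-flip). Muscle forms were thus the minor form for cytosolic creatine kinase and AMP deaminase and the major form for glycogen phosphorylase.

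These ratios were compared between genotypes by a two-sided exact permutation test over the 6 libraries, which cannot go below 0.1 with 3 against 3. The mean *Ckm*/*Ckb* log2 ratio was -3.63 ± 0.207 in WT and -3.64 ± 0.312 in *Ltf*-KO, a difference of -0.010 (SD, n = 3 each; exact permutation p = 0.9). Its sign turned when WT replicate 2, WT replicate 3 or *Ltf*-KO replicate 2 was left out (0.016, 0.077 and 0.170). The mean *Pygm*/*Pygb* log2 ratio was 0.39 ± 0.147 in WT and 0.49 ± 0.268 in *Ltf*-KO (SD, n = 3 each; exact permutation p = 0.6), and the difference of 0.10 was -0.00069 without *Ltf*-KO replicate 3. The mean *Ampd1*/*Ampd2* log2 ratio was -5.09 ± 0.162 in WT and -4.78 ± 0.143 in *Ltf*-KO (SD, n = 3 each). Every *Ltf*-KO library lay above every WT library in this ratio, a difference of 0.31 with the smallest p that the design allows (exact permutation p = 0.1, adjusted p = 0.4 over 4 pairs), at an *Ampd1* level of at most 1.11 TPM. With 0.1 TPM added in place of 1 TPM this difference was 0.69 and no longer had the smallest p (exact permutation p = 0.3). As a share of *Ampd1* plus *Ampd2* TPM, *Ampd1* made up 0.909% ± 0.519 in WT and 1.51% ± 0.552 in *Ltf*-KO (SD, n = 3 each). In this share the genotypes overlapped. The difference for *Ckmt2*/*Ckmt1* was 0.18 (exact permutation p = 0.3), or 0.89 with 0.1 TPM added, since both genes lay near the floor.

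**Figure D2:**
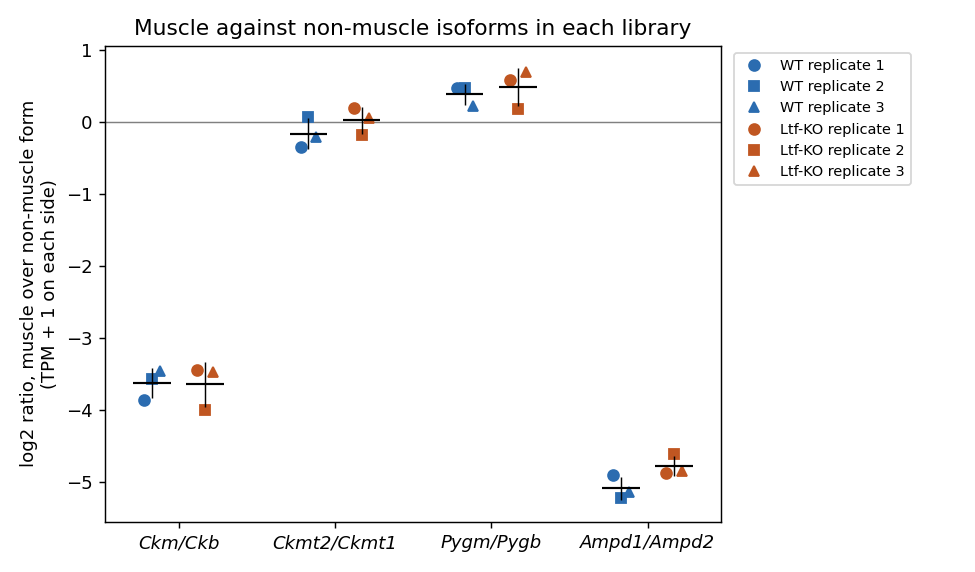
The plot of isoform ratios gives, for each library, the log2 ratio of the muscle form over the non-muscle form with 1 TPM added to each, WT in blue and *Ltf*-KO in orange, with mean (horizontal) and SD (vertical) of 3 libraries. *Ckm*/*Ckb* lies near -3.63 and *Ampd1*/*Ampd2* near -4.93, while every *Pygm*/*Pygb* point lies above 0.

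Across the table, *Ltf*-KO was compared with WT by limma on log2(TPM + 1), and the 12956 genes whose mean over all libraries reached 1 TPM were tested. Of the 9 members, 6 passed this filter on the mean of all libraries, and *Ckmt1*, *Ckmt2* and *Ampd1* did not. At a limma adjusted p under 0.05, 0 of the 6 members and 0% of all tested genes were called. At an unadjusted limma p under 0.05 there were 490 genes, or 3.78% of all tested genes, and 1 member, *Mb*, which was higher in *Ltf*-KO like 2.01% of all tested genes. The 6 members had log2 fold changes from 0.0034 to 0.30 with a median of 0.08, beside a median of 0.011 over all tested genes. All 6 estimates were above 0, except that *Pygb* was at -0.010 with quantile normalization and -0.0065 with median-of-ratios scaling, and that *Ckm* and *Pygb* crossed 0 with single libraries left out. Over all 12956 tested genes, 7220 estimates were above 0. The confidence intervals bound the differences in TPM + 1 that these libraries leave room for. They were 0.91-fold to 1.1-fold for *Pygb*, 0.95-fold to 1.15-fold for *Ckb* and 0.996-fold to 1.15-fold for *Ak1*. Wider ones were 0.89-fold to 1.30-fold for *Pygm*, 1.03-fold to 1.46-fold for *Mb* and 0.78-fold to 1.38-fold for *Ckm*.

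**Figure D3:**
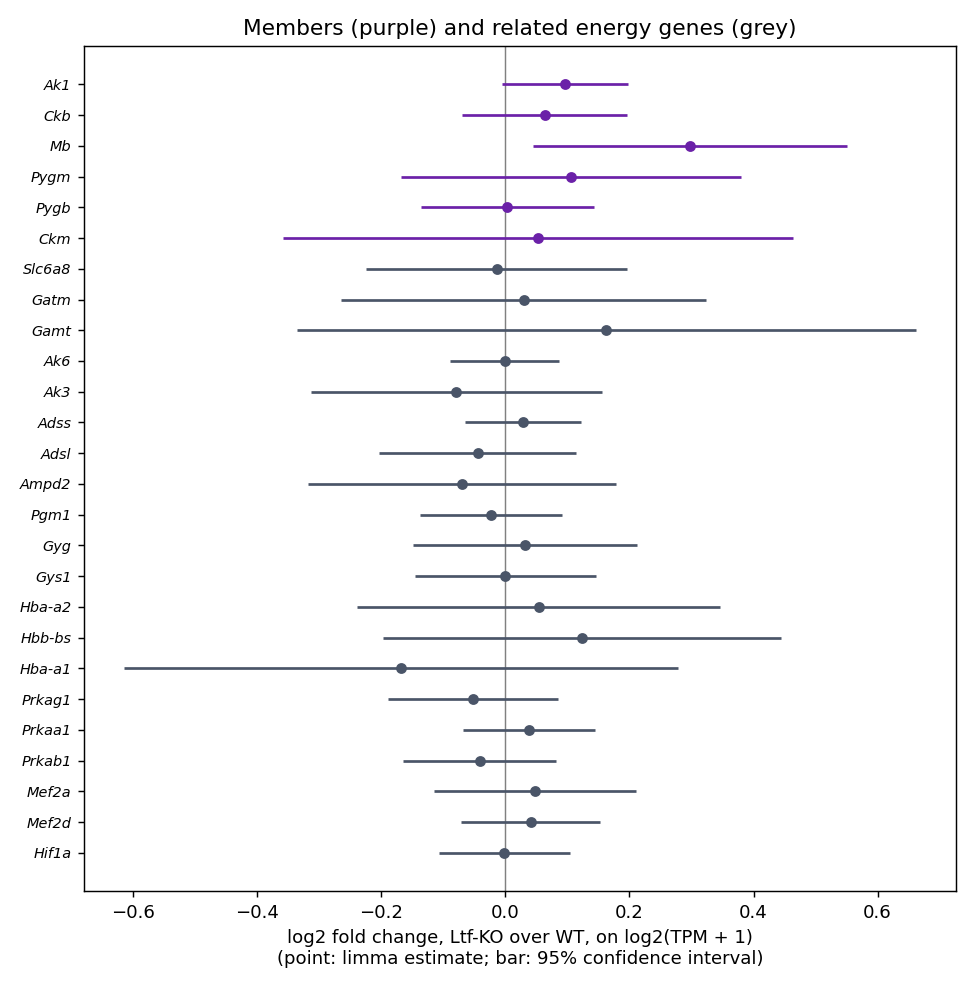
The plot of fold changes gives the limma log2 fold change of *Ltf*-KO over WT with its 95% confidence interval, for the 6 tested members in purple and up to 3 of the most abundant genes of each related energy list in grey. The interval of *Mb*, from 0.05 to 0.55, is the only one shown that lies wholly above 0, and its adjusted p is 0.999.

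Genes around these members were taken from 7 lists of energy metabolism, of which 58 genes were in the table and 45 were tested. At an unadjusted limma p under 0.05 there were 0 of these 45 genes (against 3.78% of all tested genes), with 24 estimates above and 21 below 0 and a median log2 fold change of 0.0069.

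Creatine is made by *Gatm* and *Gamt* and taken up by the transporter *Slc6a8*, and all 3 genes were expressed. *Slc6a8* was at 87.7 ± 7.52 TPM in WT and 86.9 ± 8.16 TPM in *Ltf*-KO, *Gatm* at 70.4 ± 6.69 and 72.3 ± 11.1 TPM, and *Gamt* at 10.6 ± 2.47 and 12.01 ± 2.62 TPM (SD, n = 3 each). Their differences were within the spread between libraries, with log2 fold changes of -0.014, 0.029 and 0.16.

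Among the other adenylate kinases, 5 of 8 were tested, with none at an unadjusted limma p under 0.05. All 5 estimates were below 0 in contrast to *Ak1*, as were those of 5736 of all 12956 tested genes. *Ak3*, of the mitochondrial matrix, was at 21.2 ± 1.15 TPM in WT and 20.2 ± 2.65 TPM in *Ltf*-KO (SD, n = 3 each), a difference within the spread between libraries. *Ak6* was listed at 250.5 ± 7.26 and 250.3 ± 6.49 TPM, and its exons overlap *Taf9* and *Rad17*, so its level is uncertain. Among the most abundant energy genes named from the lists, *Ak3*, *Ampd2*, *Pgm1*, *Gys1*, *Prkag1*, *Hif1a*, *Mef2a* and *Mef2d* also share exon bases with another gene in GENCODE M21, mostly on the opposite strand.

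In the purine nucleotide cycle, which turns AMP into IMP and back, 5 of 5 genes were tested, 2 with estimates above and 3 below 0. *Adss* was at 78.9 ± 0.737 and 80.5 ± 2.64 TPM, *Adsl* at 77.6 ± 4.999 and 75.2 ± 4.72 TPM and *Ampd2* at 48.2 ± 5.65 and 45.8 ± 4.37 TPM in WT and *Ltf*-KO (SD, n = 3 each). In glycogen metabolism 12 of 19 genes were tested, 8 with estimates above and 4 below 0, from -0.11 to 0.15 on the log2 scale. Its most abundant genes were *Pgm1* (32.7 ± 0.818 and 32.2 ± 1.19 TPM), *Gyg* (31.1 ± 2.49 and 31.8 ± 2.03 TPM), the primer of glycogen, and the synthase *Gys1* (29.7 ± 1.49 and 29.7 ± 1.60 TPM).

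Of the other globins, 5 of 6 were tested, 4 with estimates above and 1 below 0. The haemoglobin genes *Hba-a2* (8.52 ± 0.935 and 8.91 ± 1.34 TPM), *Hbb-bs* (7.31 ± 0.910 and 8.08 ± 1.35 TPM) and *Hba-a1* (2.66 ± 0.485 and 2.28 ± 0.681 TPM) have near-identical copies among which reads can be split. They lay far below *Mb*, while *Alas2*, the haem enzyme of erythroid cells, was at 0.53 TPM or less. AMP-activated protein kinase, the sensor of AMP, had 7 of 7 subunit genes tested, 4 above and 3 below 0, and its most abundant were *Prkag1* (57.6 ± 1.86 and 55.6 ± 3.55 TPM), *Prkaa1* (52.6 ± 1.40 and 54.02 ± 1.85 TPM) and *Prkab1* (46.7 ± 1.57 and 45.4 ± 2.10 TPM). Of the regulators of muscle energy genes 8 of 9 were tested, 4 above and 4 below 0, led by *Mef2a* (97.8 ± 6.88 and 101.1 ± 6.24 TPM), *Mef2d* (65.5 ± 2.50 and 67.4 ± 2.30 TPM) and *Hif1a* (44.1 ± 0.356 and 44.1 ± 1.73 TPM), given as WT and *Ltf*-KO means ± SD with n = 3 each.

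The cultures differed in the level of muscle differentiation genes, a list that holds myosins, troponins, actins and fusion genes and was led by *Mylpf*, a fast myosin light chain. The summed level of its 22 genes was 4236, 5399 and 3920 TPM in the WT libraries and 4602, 4011 and 6378 TPM in the *Ltf*-KO libraries. *Ltf*-KO replicate 3 was the highest and WT replicate 3 the lowest, and the genotypes overlapped. Of the 20 tested genes, 20 had estimates above 0 (median log2 fold change 0.15) and 0 had an unadjusted limma p under 0.05. Of all 12956 tested genes, 7220 had estimates above 0. Genes of a list share the same 6 libraries, so their signs are not independent.

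Each tested member was set against the mean log2(TPM + 1) of these 20 genes over the 6 libraries, a comparison of 6 relations chosen after the data were seen. *Pygb* was lower where the list was higher (Pearson r = -0.877, exact permutation p = 0.0222, adjusted p = 0.133, and Spearman rho = -0.886, exact permutation p = 0.0333, adjusted p = 0.175). *Pygm* ran the other way (r = 0.786, exact permutation p = 0.0667, adjusted p = 0.2, and rho = 0.829, exact permutation p = 0.0583, adjusted p = 0.175). *Mb* had r = 0.683 (exact permutation p = 0.133, adjusted p = 0.267) and rho = 0.543 (exact permutation p = 0.297, adjusted p = 0.558). *Ckm* had r = 0.556 (exact permutation p = 0.25, adjusted p = 0.375) and rho = 0.464 (exact permutation p = 0.372, adjusted p = 0.558). *Ckb* and *Ak1* had r of 0.445 and 0.411 (exact permutation p = 0.367 and 0.408, adjusted p = 0.408 each) and rho of 0.314 and 0.371 (exact permutation p = 0.564 and 0.497, adjusted p = 0.564 each). None of the 6 relations passed the adjustment. Without WT replicate 3 and *Ltf*-KO replicate 3, the libraries farthest from the median of the list, r over 4 libraries was -0.800 for *Pygb*, 0.503 for *Pygm*, 0.727 for *Ckm* and 0.027 for *Mb*, and it turned negative for *Ckb* (-0.809) and *Ak1* (-0.863). The r of *Mb*, *Ckb* and *Ak1* thus depended on those 2 libraries. They were the lowest and the highest of the list, so the remaining 4 span a narrower range of it, and r over 4 libraries was not tested. With 3 libraries a genotype holds too few for a value of its own.

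**Figure D4:**
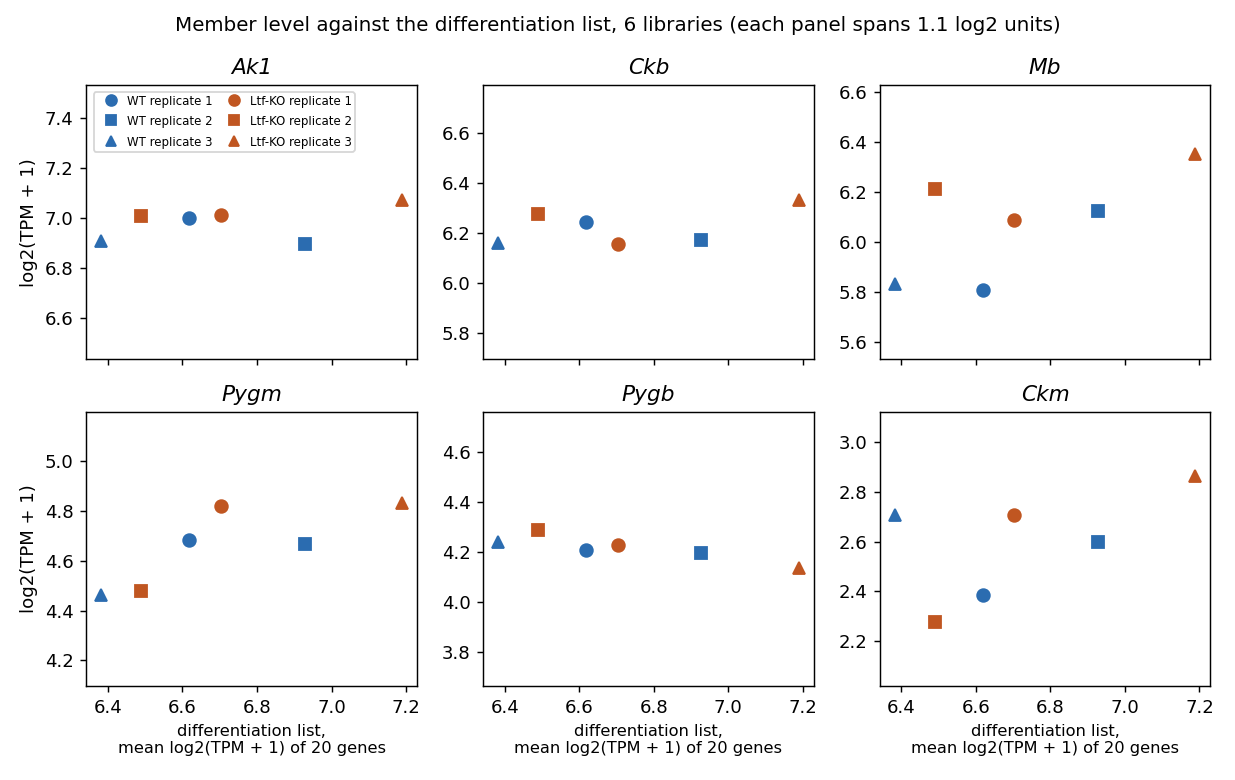
The plot of members against differentiation gives log2(TPM + 1) of each tested member (y axis) against the mean log2(TPM + 1) of 20 differentiation genes (x axis) in 6 libraries, WT in blue and *Ltf*-KO in orange, with the same height of scale in every panel. *Pygm* tends upward and *Pygb* slightly downward from left to right, and *Ltf*-KO replicate 3 is at the right end of each panel.

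The genes most like *Ckm* in their pattern over the 6 libraries were sought among 8072 genes that averaged 10 TPM or more, by the mean absolute difference of log2(TPM + 1) after each gene was centred on its own mean. Among the nearest were *Gm9803* (0.047), *Zbtb20* (0.052), *Trim55* (0.064) and *Cgnl1* (0.064), in log2 units, beside a mean absolute deviation of 0.172 for *Ckm* itself. *Trim55* encodes a ubiquitin ligase of the sarcomere and was at 25.85, 28.68 and 29.59 TPM in WT and 32.62, 26.62 and 35.57 TPM in *Ltf*-KO libraries. In each of these 4 genes, as in *Ckm*, WT replicate 1 and *Ltf*-KO replicate 2 held the lowest 2 values. They were picked as the nearest of all genes compared, so this is a description with no test.

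Markers of other cell types that a muscle digest can hold were counted beside these results, and their part in them was not tested. The counts of estimates above 0 stand beside 7220 of all 12956 tested genes. The satellite cell list summed to 1624 to 1669 TPM in WT and 1651 to 1665 TPM in *Ltf*-KO libraries, with 5 of 9 tested genes above 0. The fibroblast list summed to 116.2 to 122.1 and 117.3 to 153.6 TPM, most of it *Col3a1*, with 6 of 6 tested genes above 0. The smooth muscle and pericyte list summed to 505.6 to 588.6 and 576.8 to 691.2 TPM, most of it *Acta2*, with 3 of 3 tested genes above 0. The other 4 of its 7 genes were below the filter. Of these, *Cnn1* and *Kcnj8* had lower means in *Ltf*-KO, and *Myh11* and *Rgs5* had higher ones. *Tagln* in that list had an unadjusted limma p of 0.0277 and a limma adjusted p of 0.999. The endothelial list (led by *Cdh5*) summed to 7.54 to 18.7 and 7.6 to 15.7 TPM with 3 of 5 above 0, the Schwann list to 14.1 to 26.1 and 16.4 to 23.2 TPM with 4 of 5, and the erythroid list (led by *Hba-a2*) to 18.2 to 20.6 and 19.6 to 22.8 TPM with 3 of 4. The macrophage list of 7 genes, led by *Cd68*, summed to 11.6, 6.01 and 4.46 TPM in WT and to 4.74, 4.69 and 3.66 TPM in *Ltf*-KO libraries, with 0 of 2 tested genes above 0. WT replicate 1 stood apart, with *Lyz2* at 7.22 TPM against 0.38 to 2.31 TPM and *Csf1r* at 0.39 TPM against 0.05 to 0.09 TPM in the other libraries. *Adgre1*, *Itgam*, *C1qa* and *Ptprc* were also highest there, at 0.16 TPM or less, and each was at 0 in at least 1 other library. *Cd68* was not, at 3.56 TPM in WT replicate 1 against 3.58 TPM in WT replicate 2 and 3.98 TPM in WT replicate 3. Without WT replicate 1 the log2 fold changes were 0.24 for *Mb*, 0.14 for *Pygm*, 0.13 for *Ak1*, 0.089 for *Ckb*, -0.00042 for *Pygb* and -0.036 for *Ckm*, and 0 members had a limma adjusted p under 0.05. At a limma adjusted p under 0.05 there were 0 genes in any of these lists.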

How the data were processed

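The authors deposited 1 table of TPM values with 2 decimals for 55416 genes in 6 libraries, 3 WT and 3 *Ltf*-KO, and its columns were assigned by the sample labels. Per the labels and the study's methods, a sequencing company extracted and normalized the values by its own protocol, and the processing notes of the submitters name GRCm39. The aligner, the counting tool and the annotation release are not given in the sources used here. TPM keeps no depth, so the number of libraries and their spread limit the precision.

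Genes were matched by name. limma 3.58.1 in R 4.3.3 (lmFit, eBayes with a variance trend, two-sided) was fitted to log2(TPM + 1) for all 12956 genes whose mean reached 1 TPM, with Benjamini-Hochberg adjustment over all of them and a threshold of 0.05. The pseudocount of 1 understates fold changes of low genes. Isoform ratios were tested by exact permutation and sign-flip tests in Python 3.11.15. The fit was tested on simulated data. Alternatives were a pseudocount of 0.1, no filter, a filter at a mean of 10 TPM, the replicate block, each library left out, quantile normalization, median-of-ratios scaling and no variance trend. The count of genes whose groups do not overlap and the relation to the differentiation list were added after the data were seen. Promoter windows are from RefSeq on GRCm38.p6, and overlapping exons from GENCODE M21 on GRCm38, neither of which is the build named for the table. The members and the gene lists, including those of satellite cells, differentiation, fibroblasts, endothelial cells, macrophages, smooth muscle and pericytes, Schwann and erythroid cells, were chosen with earlier results of these data known. All 9 members were named. The 3 most abundant genes of each energy list, any at an unadjusted p under 0.05, the leading gene of each marker list and the 5 genes most like *Ckm* were named by rule, except a few that are not reported here. *Pax7*, *Cd34*, *Chrdl2*, *Pygl*, *Alas2*, *Tagln*, genes with overlapping exons, the macrophage markers other than *Cd68* and the isoforms of the closing section were named after their values were seen. The same holds for *Ampd3*, *Cnn1*, *Kcnj8*, *Myh11* and *Rgs5*.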

Additional observations from a re-analysis of the deposited data

How the results depend on the processing

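Under all 13 alternatives run, 0 members were called at a limma adjusted p under 0.05. Estimates for *Mb* (0.23 to 0.40), *Ak1* (0.075 to 0.13), *Ckb* (0.025 to 0.11) and *Pygm* (0.034 to 0.22) stayed above 0 throughout. Quantile normalization put *Pygb* at -0.010 and scaling by median of ratios at -0.0065, and leaving out single libraries gave -0.032 to 0.045 for *Pygb* and -0.071 to 0.222 for *Ckm*. Leaving out single libraries gave 0 to 6 called genes in the whole table, the 6 being without WT replicate 2, and members at an unadjusted limma p under 0.05 numbered 0 to 1. There were 0 without WT replicate 3 or *Ltf*-KO replicate 3, while without WT replicate 1 *Ak1* and without *Ltf*-KO replicate 2 *Pygm* took the place of *Mb*, with unadjusted limma p of 0.0189 and 0.0443. With no filter 890 genes and with the filter at 10 TPM 281 genes had an unadjusted p under 0.05, as more or fewer genes were tested, and 2 members with no filter (*Ak1* joined *Mb*).

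Genotype differences in the log2 ratio ranged with one library left out from -0.125 to 0.170 for *Ckm*/*Ckb* and from -0.00069 to 0.253 for *Pygm*/*Pygb*. The cause was not tested. Within libraries the ratios kept their direction, at -3.67 to -3.56 for *Ckm*/*Ckb*, 0.389 to 0.491 for *Pygm*/*Pygb* and -4.997 to -4.88 for *Ampd1*/*Ampd2*, but with 5 libraries the exact sign-flip test cannot go below 0.0625, so each lost its call.

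The labels give both genotypes replicate numbers 1 to 3. After each genotype's mean was removed, libraries with the same number correlated at -0.041, -0.058 and -0.088 across genes, and 0 of 3 WT libraries correlated best with their own number. Pairing by number was thus not seen, though 3 libraries per genotype make this a weak check. With the replicate block 0 members and 0 genes had a limma adjusted p under 0.05 and 380 genes an unadjusted p under 0.05. The paired difference in the *Ckm*/*Ckb* log2 ratio was -0.010 (p = 0.75, exact sign-flip).

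As TPM keeps no depth, how many reads lie behind *Ckmt1*, *Ckmt2* and *Ampd1* cannot be known.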

Other observations

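Other enzymes in the energy lists also have muscle and non-muscle forms, and their levels are given here as values over the 6 libraries, chosen after they were seen and with no test. For adenylosuccinate synthase the muscle form *Adssl1* lay between 30.5 and 38.9 TPM and the non-muscle form *Adss* between 78.3 and 83.5 TPM. Glycogen synthase was the muscle form *Gys1* at 28.3 to 31.6 TPM, and the liver form *Gys2* was listed at 0.05 TPM or less. The regulatory alpha subunit of phosphorylase kinase was present as the muscle form *Phka1* at 5.85 to 6.68 TPM and the liver form *Phka2* at 11.98 to 13.8 TPM. Its catalytic subunit was mostly *Phkg2* at 21.6 to 26.2 TPM, while the muscle form *Phkg1* lay between 0.21 and 0.48 TPM. Exons of *Phka2*, *Phkg1* and *Phkg2* overlap *Gm15243* (0 TPM), *Sumf2* (15.8 to 20.7 TPM) and *Ccdc189* (1.14 to 2.26 TPM) on the opposite strand in GENCODE M21, and those of *Gys1* overlap *Ruvbl2*, so these levels are uncertain.

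Among AMP-activated protein kinase subunits, the muscle gamma subunit *Prkag3* lay between 1.14 and 4.24 TPM against 52.02 to 59.7 TPM for *Prkag1*, and *Prkaa2*, the alpha subunit most used by muscle fibres, between 1.34 and 1.76 TPM against 51.2 to 55.5 TPM for *Prkaa1*. *Prkag3* was lowest in WT replicate 3 (1.14 TPM) and highest in *Ltf*-KO replicate 3 (4.24 TPM), which were also the lowest and highest libraries in the summed level of the differentiation list. *Ppp1r3a*, which anchors protein phosphatase to glycogen in muscle fibres, was at 0.04 TPM or less.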
